A study of Capra hircus with 24 samples.

Results

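The expression of 8 receptor genes for hormones of season and hair growth, and of the deiodinase gene DIO2, was followed through papilla cells of the cashmere goat (Capra hircus). They were picked by gene symbol, and all 9 symbols (ESR1, THRA, THRB, NR3C1, VDR, GHR, PRLR, MTNR1A and DIO2) were among the 20326 genes of each deposited library. The 24 libraries hold RNA of dermal papilla cells from secondary follicles, which grow the cashmere fibre, or from primary follicles, which grow guard hair. The goats were female or male and were sampled in June, labelled early anagen, or in October, labelled anagen. Follicle type, month and sex give 8 groups of 3 libraries: secondary June female, secondary June male, primary June female, primary June male, and the same 4 in October. Month and labelled growth stage go together and cannot be told apart. The labels give no breed, age, treatment or genotype. The 3 libraries of a group are labelled as biological repeats, with no word on whether animals or cultures were separate, so each p-value measures the spread between these libraries, part of which may be technical.

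The papilla is the mesenchymal core at the base of the follicle, and its signals to the epithelium around it govern the growth of the hair. Of the genes, 5 encode nuclear receptors, which bind a hormone and then act on DNA: NR3C1 binds glucocorticoids, VDR binds the active form of vitamin D, THRA and THRB bind thyroid hormone, and ESR1 binds oestrogens. GHR and PRLR are membrane receptors for growth hormone and prolactin that signal through the kinase JAK2. MTNR1A is a membrane receptor for melatonin, the night hormone through which day length reaches seasonal tissues. DIO2 is an enzyme that converts the prohormone thyroxine into the active thyroid hormone inside the cell. Cashmere growth is seasonal, and melatonin and prolactin are the hormones most often linked with its timing. VDR is needed in the epithelium for hair follicles to cycle after birth.

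Library totals of the deposited normalised values ran from 959766 to 1045876, and the reads behind a value are unknown. The tests took in 13049 genes, those that reached 1 in 3 libraries or more. Within groups, Pearson r between libraries was 0.993 to 0.997 on the log2(value + 1) scale, taken over genes that are not independent of each other. Papilla and fibroblast markers were present in every group, with 8 to 10 of 12 papilla markers and 6 of 6 fibroblast markers at a mean of 1 or more. CORIN and HHIP, also used as papilla markers, had group means of at most 0.217 and 0.01. ALPL, another papilla marker, was at 2.03 in primary June females and at most 0.733 in the other groups. Of the immune markers, PTPRC had group means of at most 0.00667, while CD68 (3.55 to 21.9) and CD14 (4.48 to 14.8) were present. The 6 immune markers found summed to 34.4 to 41.0 in secondary June males and to 10.7 to 24.9 in the other groups. Of the vessel markers, CDH5 had group means of at most 0.01, and PECAM1 was at 2.0 in secondary June males and at most 0.347 elsewhere. The secondary October female libraries stood apart in epithelial markers: the 13 keratinocyte and hair matrix markers summed to 304 to 330 there, with 11 of 13 at a mean of 1 or more and KRT1 at 0.01, and to 10.1 to 87.5 in the other 21 libraries. KRT5 (197) and KRT14 (77.5) made up most of that sum. CDH3, LAMB3 and KRT10 were not highest in this group, and CDH3 was at 4.88 against 32.6 in secondary June males. Mitochondrial transcripts were also highest in secondary October females, at 11.2 to 12.7% of the total against 8.72 to 10.8% elsewhere. The secondary October male libraries were closest to the primary October male libraries (mean r = 0.992), and their SOX2, a papilla marker, was at 14.2, as in the primary groups (12.4 to 15.9) and unlike the other secondary groups (0.257 to 0.333). In such bulk samples, fewer cells of a type and less RNA per cell cannot be told apart.

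The 9 genes fell into 3 levels. Averaged over the 24 libraries, VDR (19.6), NR3C1 (18.5), THRB (17.1) and THRA (16.5) stood at similar normalised values, at ranks 5885 (VDR) to 6497 (THRA) of all genes. GHR (2.75), ESR1 (1.13), DIO2 (0.964) and PRLR (0.649) were far lower, at ranks 11049 to 12826. MTNR1A was listed at 0 in 22 of 24 libraries, with 0.07 in primary June female 3 and 0.08 in primary October male 1. Comparing levels between genes assumes that the deposited values are scaled to transcript length, as the software named by the submitters does by default. Of the 9, 7 passed the filter and were tested. PRLR and MTNR1A did not reach 1 in any library and are given as values only.

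**Figure D1:**
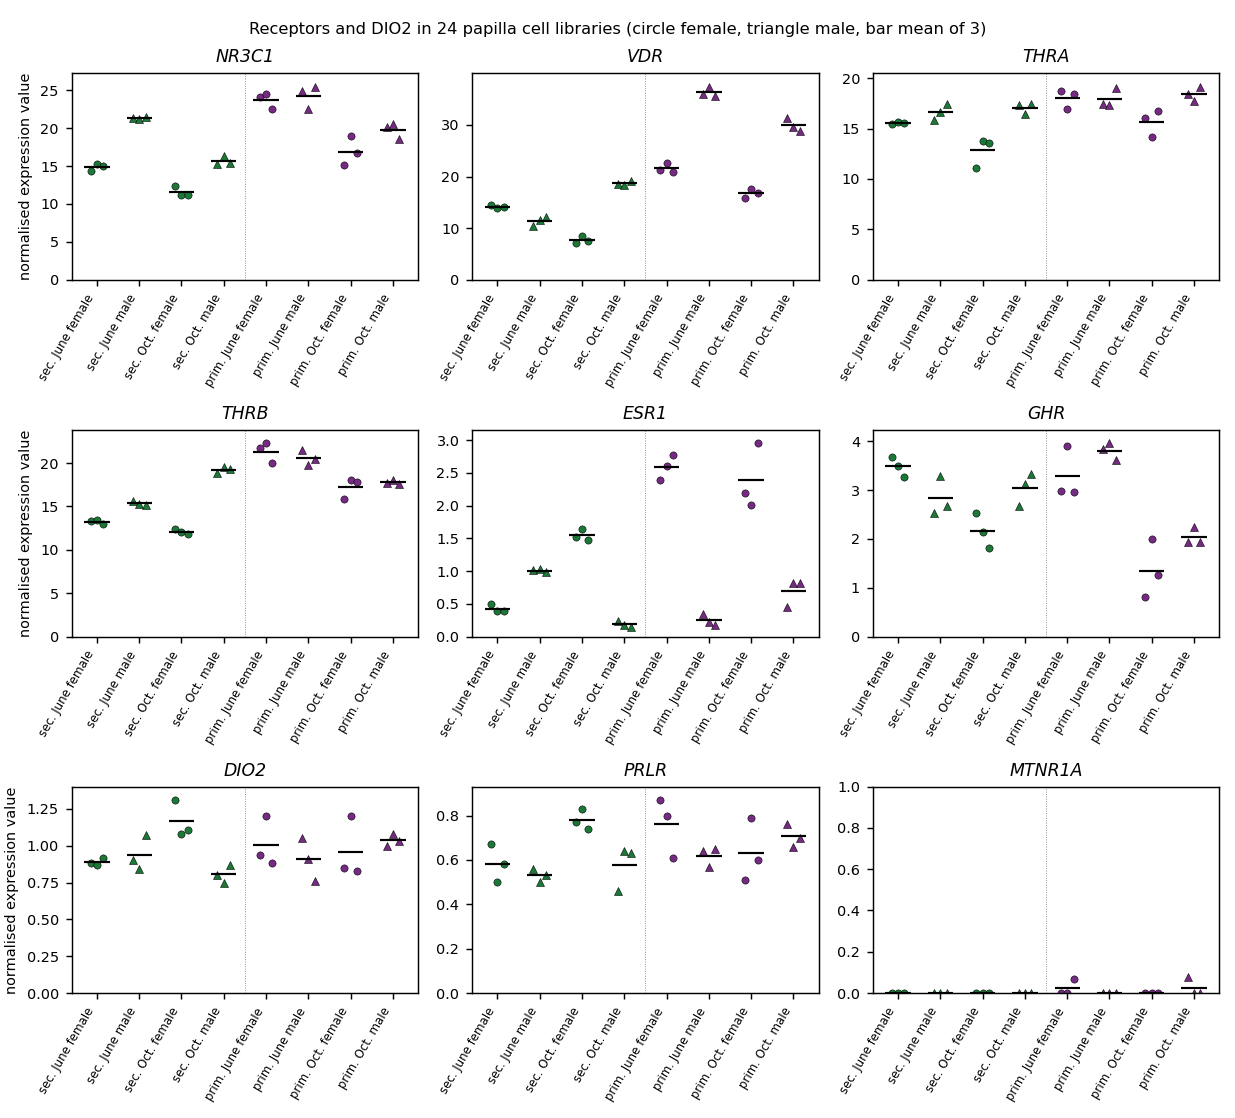
Deposited normalised expression value (vertical axes, linear, from 0) of each of the 9 genes in the 24 libraries, by follicle type, month and sex; points are libraries and bars are means of 3. VDR spans 7.11 to 37.4 with the primary groups mostly above the secondary ones, while PRLR stays between 0.46 and 0.87 and MTNR1A at or near 0.

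VDR showed the widest range of the more highly expressed receptors, 4.71-fold between group means, and no neighbouring groups overlapped in the order of the 8. It was lower in secondary than in primary cells in both months and both sexes. In June males the secondary libraries read 10.38, 11.6 and 12.21 and the primary libraries 35.96, 37.37 and 35.6. The groups lie far apart, 3.19-fold by their means, and the log2(value + 1) difference was -1.59 (SE 0.060, adjusted p = 5.01e-16). In October females the values were 7.11, 8.44 and 7.59 in secondary against 15.89, 17.53 and 16.9 in primary libraries, a log2 difference of -1.03 (SE 0.060, adjusted p = 2.98e-12). The comparison was smaller but still without overlap in June females (14.2 ± 0.351 against 21.6 ± 0.91, SD, n = 3, log2 difference -0.57) and in October males (18.7 ± 0.388 against 29.9 ± 1.21, log2 difference -0.65).

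From June to October VDR fell in 3 of the 4 combinations of follicle type and sex, called series from here on, and rose in the fourth. In secondary females it went from 14.56, 13.86 and 14.16 to 7.11, 8.44 and 7.59, a log2 difference of -0.80 (SE 0.060, adjusted p = 1.65e-10). In secondary males it went the other way, from 10.38, 11.6 and 12.21 to 18.53, 18.42 and 19.14, a log2 difference of 0.67 (adjusted p = 2.44e-09). This opposite movement of the sexes was itself tested, and the difference between them was 1.48 (SE 0.085, adjusted p = 4.4e-12). In primary cells it fell by 0.35 in females and 0.27 in males, and that pair did not pass a test of their difference (0.07, adjusted p = 0.541). Males had more VDR than females in 3 of 4 comparisons, by 1.18 in secondary October, 0.73 in primary June and 0.80 in primary October cells, and less in secondary June cells (-0.30). VDR was called in all 12 comparisons of single groups, as were 1.18% of the 13049 genes tested. The sum of the 6 pericyte and smooth muscle markers was also highest in primary June males, at 781 to 830 against 311 to 708 elsewhere. CNN1 (mean 724) made up most of it. CNN1, NOTCH3 and MCAM were highest in that group, while DES, MYH11 and RGS5 were not. DES, for example, was at 38.4 there and 74.0 in secondary October males. The part of these markers in the VDR values was not tested.

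Other genes of vitamin D action gave a thinner picture. Of the 16 listed genes, 10 were found by symbol and 4 reached the level for testing. CYP24A1, the enzyme that degrades active vitamin D and a classical VDR target, its activating counterpart CYP27B1 and the receptor partner RXRA were not analysed here. RXRB, another partner of VDR and of the thyroid hormone receptors, stayed between 19.4 and 25.8 in the 24 libraries and was called in 2 of 12 comparisons, of which October against June in primary males was 0.26. HR, the hairless corepressor that binds VDR and is needed for follicle cycling, was higher in secondary cells in June (0.66 in females, 0.46 in males) and lower in October males (-0.78). SPP1, the matrix protein osteopontin and a known VDR target, was higher in secondary cells throughout, most in June males (1.91). PDIA3, a chaperone also described as a membrane receptor for vitamin D, was higher in secondary June females (0.26) and not called in the other 3 comparisons of follicle type.

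NR3C1, the glucocorticoid receptor, was lower in secondary than in primary cells and lower in October than in June. In June females the secondary libraries read 14.39, 15.23 and 14.95 and the primary ones 24.07, 24.46 and 22.57, a log2 difference of -0.64 (SE 0.066, adjusted p = 3.49e-08). In October females the values were 12.33, 11.18 and 11.13 against 15.1, 18.92 and 16.72 (-0.51, adjusted p = 1.57e-06), and in October males 15.24, 16.3 and 15.39 against 20.18, 20.49 and 18.63 (-0.32, adjusted p = 0.00126). Groups did not overlap in any of these. The difference in June males was smaller (21.3 ± 0.0902 against 24.3 ± 1.58, SD, n = 3, log2 difference -0.17, adjusted p = 0.0269). It lost its call without any of secondary June male 1, 2 or 3 or primary June male 1 or 3 (-0.18 to -0.14, adjusted p = 0.0525 to 0.114) and with a common library total (-0.09, adjusted p = 0.311).

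The fall of NR3C1 from June to October was found in all 4 series, by 0.34 in secondary females, 0.43 in secondary males, 0.47 in primary females and 0.28 in primary males on the log2 scale (adjusted p = 3.85e-06 to 0.00099). As ratios of means, June stood 1.23-fold to 1.40-fold above October. A difference of this fall between follicle types or sexes was not called, except between follicle types of males with a common library total (-0.31, adjusted p = 0.0151) and between the sexes in primary cells without primary October female 2 (0.27, adjusted p = 0.0177). Males exceeded females in secondary cells, by 0.50 in June and 0.41 in October, and in primary October cells by 0.22 (adjusted p = 0.0133). The latter call was lost without primary October female 1 (0.14, adjusted p = 0.108), primary October male 1 (0.20, adjusted p = 0.050) or primary October male 2 (0.19, adjusted p = 0.0595), and with these groups fitted alone (adjusted p = 0.103). In primary June cells the sexes read 24.3 and 23.7 and were not called apart (0.03, adjusted p = 0.731).

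Genes that make glucocorticoids available or answer to them moved in directions that differed by comparison. Of 18 tested genes, 4 were higher and 9 lower in the secondary cells of June females (median -0.18), while 12 were higher and 4 lower in those of June males (median 0.26). Of all genes 25% were higher and 24.3% lower in the former, and 30.7% and 28.9% in the latter. The median of all tested genes was 0.00 in the former and 0.01 in the latter. In October, 8 were higher and 3 lower in the secondary cells of females (18.3% and 17.2% of all genes), and 7 and 5 in those of males (10.9% and 7.63%). From June to October 2 rose and 11 fell in secondary males (median -0.30, where 25.3% of all genes rose and 31.2% fell) and 2 and 11 in primary females (median -0.26, 22.7% and 25.6%), with NR3C1 lower in October in both. In secondary females 6 rose and 7 fell (24.2% and 27.1% of all genes), and in primary males 5 and 3 (26% and 29.5%). HSD11B1, the enzyme that regenerates active cortisol from cortisone, was higher in secondary cells in all 4 comparisons, by 0.79 and 2.1 in June females and males and by 0.87 and 0.32 in October, while NR3C1 was lower in the same libraries. FKBP5, a chaperone induced by glucocorticoids that restrains the receptor, was lowest in secondary October females (3.12 to 3.54, against 4.75 to 6.73 in the other 21 libraries), the group that also had the lowest NR3C1. TSC22D3, an anti-inflammatory target known as GILZ, was lower in secondary cells of males (-0.87 in June, -0.79 in October) and not called in females. PER1, a clock gene that is also a direct glucocorticoid target, fell from June to October in primary females (-1.01) and secondary males (-0.40). Among the other targets, DUSP1, a phosphatase of the MAP kinases, fell in primary females (-1.73), ANGPTL4, an inhibitor of lipoprotein lipase, fell in secondary males (-1.83), and the kinase SGK1 rose in secondary females (1.06) and fell in secondary males (-0.61). NR3C2, the related mineralocorticoid receptor, was between 0.01 and 0.36 in all libraries.

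The 2 thyroid hormone receptors were present at near-equal levels, with a THRB to THRA ratio of 0.838 to 1.31 in the single libraries. THRB, the form that takes part in hormone feedback and is also found in skin, was lower in secondary cells in both sexes in June and in females in October. In June females it read 13.35, 13.4 and 13.01 in secondary and 21.78, 22.28 and 19.96 in primary libraries, a log2 difference of -0.65 (SE 0.051, adjusted p = 4.17e-10). In June males the values were 15.64, 15.25 and 15.21 against 21.52, 19.83 and 20.48 (-0.40, adjusted p = 5.54e-07), and in October females 12.35, 12.11 and 11.77 against 15.9, 18.07 and 17.78 (-0.48, adjusted p = 8.46e-08). October males were the exception, with 18.9, 19.56 and 19.29 in secondary against 17.72, 18.03 and 17.57 in primary libraries. These groups did not overlap, and the difference of 0.11 was not called (adjusted p = 0.152). The effect of follicle type differed between the sexes in October (0.59, adjusted p = 1.26e-06) and between the months in males (0.51, adjusted p = 4.82e-06).

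Over the season THRB rose in secondary males, from 15.4 ± 0.238 to 19.3 ± 0.332 (SD, n = 3, log2 difference 0.31, adjusted p = 2.25e-05). It fell in primary females, from 21.3 ± 1.22 to 17.3 ± 1.18 (-0.29, adjusted p = 5.88e-05), and in primary males (-0.20, adjusted p = 0.00193), the latter not with a common library total (-0.12, adjusted p = 0.089). The smaller fall in secondary females (-0.12, adjusted p = 0.0469) lost its call when any of the 6 libraries compared was left out (-0.14 to -0.11, adjusted p = 0.0528 to 0.135), when these groups were fitted alone, and with a common library total. In secondary cells THRB was higher in males than in females, by 0.20 in June and 0.63 in October, while the sexes were not called apart in primary cells.

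THRA, the form found in most tissues, varied least among the 4 more highly expressed receptors, 1.44-fold between its highest and lowest group means. Its secondary October female libraries read 11.12, 13.81 and 13.6 and were below all other 21 libraries, which lay between 14.14 and 19.14. In that group it was lower than in primary October females (-0.27, adjusted p = 0.00465), than in secondary June females (-0.26, adjusted p = 0.0036) and than in secondary October males, which stood 0.39 higher (adjusted p = 0.000108). The first of these was not called with these groups fitted alone (adjusted p = 0.094). THRA was also lower in secondary than in primary June females (-0.20, adjusted p = 0.0211) and lower in primary females in October than in June (-0.20, adjusted p = 0.0241). Neither was firm: the former was lost without secondary June female 1 (-0.20, adjusted p = 0.0516), primary June female 1 (-0.18, 0.0814) or primary June female 3 (-0.19, 0.0606), and the latter without primary June female 1 (-0.17, 0.0898), primary June female 3 (-0.18, 0.0686) or primary October female 2 (-0.13, 0.14) and with its 2 groups fitted alone (adjusted p = 0.10). In primary October cells males exceeded females by 0.23 (adjusted p = 0.0148), not without primary October female 2 (0.16, 0.0935) or primary October male 3 (0.20, 0.0639), nor with these groups alone (0.0619). The gene next to THRA, NR1D1, encodes the clock repressor REV-ERB alpha. The gene models of THRA and NR1D1 do not overlap in assembly ARS1.2, and NR1D1 had another pattern, with 24.3 to 27.5 in secondary June males and 11.0 to 17.5 elsewhere.

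All 4 receptors of the higher level, VDR, NR3C1, THRA and THRB, had their lowest group mean in secondary October females, where the epithelial markers summed to 304 to 330. The part of these epithelial markers in the 4 receptor levels was not tested. In comparisons that do not use this group, VDR, NR3C1 and THRB were also lower in secondary than in primary June females, and VDR and NR3C1 in October males. THRB (0.11) and THRA (-0.11) were not called in October males. Epithelial marker sums differed in these comparisons too. They were 25.0 to 26.2 in secondary and 10.1 to 11.4 in primary June females, and 48.5 to 56.9 and 80.4 to 87.5 in October males. In June females CDH3 (20.2 against 4.83) carried most of the difference, while KRT5 went the other way (0.55 against 1.78). Of the 11 tested markers, 1 was higher and 1 lower in secondary June females, and 9 were not called (25% of all genes were higher and 24.3% lower). In October males 1 was higher and 5 lower (10.9% and 7.63%). Across the 24 libraries the 4 receptors correlated with each other with Pearson r from 0.70 to 0.81, as a description over libraries that share 8 groups.

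DIO2 was low and nearly level, between 0.75 and 1.31 in the 24 libraries, and only 10 libraries reached 1. Group means ran from 0.807 ± 0.0603 (SD, n = 3) in secondary October males to 1.17 ± 0.125 in secondary October females, and each group overlapped with its neighbour in the order. The difference between those 2 groups was the only call among 12 (males minus females -0.26, adjusted p = 0.0186). It was lost without secondary October female 1 (-0.21, adjusted p = 0.0921) or secondary October male 2 (-0.24, adjusted p = 0.0606), and with these groups fitted alone (adjusted p = 0.0588). A difference between the sexes in the October effect of follicle type, not called as deposited (-0.32, adjusted p = 0.0548), was called with no filter (adjusted p = 0.0462) and with a common library total (-0.36, adjusted p = 0.0341), as was the month by sex test in secondary cells with a common total (-0.35, adjusted p = 0.03). Without primary October female 2, secondary October females were called above primary ones (0.23, adjusted p = 0.0442), where the full data gave 0.15 (adjusted p = 0.195). DIO1, the other activating deiodinase, was between 0.17 and 0.83, and DIO3, which inactivates the hormone, was at most 0.24. SLC7A5, an amino acid transporter that also carries thyroid hormone, fell from June to October in all 4 series, by 0.35 to 0.92.

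Responders to thyroid hormone did not share that direction. KLF9, a transcription factor induced by both thyroid hormone and glucocorticoids, rose in secondary females (0.69), secondary males (0.83) and primary males (0.40) and fell in primary females (-0.66). HR, also a target of thyroid hormone, rose in primary cells (0.25 in females, 0.84 in males) and fell in secondary cells (-0.22 and -0.40). The coactivator NCOA1 was lower in secondary cells in June (-0.85 in females, -0.32 in males) and in October females (-0.33). SEPHS2, an enzyme that supplies selenium for selenoproteins such as the deiodinases, was higher in secondary cells in June (0.27 and 0.51) and in October females (0.22). Over the list of 13 tested genes, follicle type gave 4 higher and 5 lower in June females (25% and 24.3% of all genes). It gave 5 and 5 in June males (30.7% and 28.9%), 5 and 2 in October females (18.3% and 17.2%) and 1 and 2 in October males (10.9% and 7.63%).

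ESR1, the oestrogen receptor alpha, was weakly expressed but had the widest span of all tested members, 13.9-fold between its highest and lowest group means. It was highest in primary females: 2.39, 2.6 and 2.77 in June and 2.19, 2.01 and 2.95 in October. Primary males were at 0.35, 0.22 and 0.18 in June and at 0.45, 0.82 and 0.81 in October. The sexes thus lie wholly apart in primary cells, with females 10.3-fold higher by their means in June (log2 difference of males to females -1.52, SE 0.098, adjusted p = 1.16e-11) and 3.44-fold higher in October (-1.0, adjusted p = 2.36e-08). The log2(value + 1) scale understates these folds at values this low.

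In secondary cells the sex order of ESR1 turned over between the months. In June, females read 0.49, 0.39 and 0.39 and males 1.01, 1.03 and 0.98, so that males were higher (0.50, adjusted p = 0.000316). In October, females read 1.52, 1.64 and 1.47 and males 0.23, 0.18 and 0.15, so that females were higher (-1.10, adjusted p = 3.88e-09). ESR1 therefore rose in secondary females (0.84, adjusted p = 2.23e-07) and fell in secondary males (-0.76, adjusted p = 6.85e-07), and the test of this difference gave -1.60 (SE 0.14, adjusted p = 3.53e-09). In primary males it rose (0.43, adjusted p = 0.00071), and in primary females June and October overlapped (-0.09, adjusted p = 0.456). Follicle type also went opposite ways in June, with secondary below primary females (-1.33, adjusted p = 1.15e-10) and secondary above primary males (0.69, adjusted p = 2.7e-06). In October secondary cells were lower in females (-0.40, adjusted p = 0.00237) and in males (-0.51, adjusted p = 0.000639). ESR1 was called in 11 of 12 comparisons, a number reached by 3.98% of tested genes, and each of its 11 calls held under every alternative filter, scaling, pseudocount and left-out library.

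Of the genes around it, GREB1, a classical target of the oestrogen receptor, showed a similar order of groups. It was at 1.76, 1.81 and 1.53 in primary June females and 1.47, 1.66 and 2.15 in primary October females, the groups where ESR1 was also highest, and at 0.32 to 0.53 in secondary October females. The other 15 libraries were between 0.06 and 0.29, among them the secondary June males with their ESR1 of 0.98 to 1.03. PGR, the progesterone receptor and another known target, ran with the month instead: it fell in all 4 series, by 0.64 and 0.72 in secondary and by 1.57 and 1.06 in primary females and males. ESR2, the second oestrogen receptor, was between 0.10 and 0.75. Of the enzymes, SRD5A1, a 5-alpha reductase that makes dihydrotestosterone, was lower in males than in females in primary June cells (-0.73), and its relative SRD5A3 fell from June to October in primary males (-0.93). NRIP1, a corepressor of the oestrogen receptor, was lower in males than in females in primary cells (-0.38 in June, -0.64 in October). Over the 16 tested genes of this list, secondary against primary cells gave 0 higher and 9 lower in June females (median -0.20). Of all genes 25% were higher and 24.3% lower there. The list gave 1 and 6 in June males (30.7% and 28.9% of all genes), 2 and 5 in October females (18.3% and 17.2%) and 0 and 1 in October males (10.9% and 7.63%). Its medians for males against females ranged from -0.11 to 0.07.

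**Figure D2:**
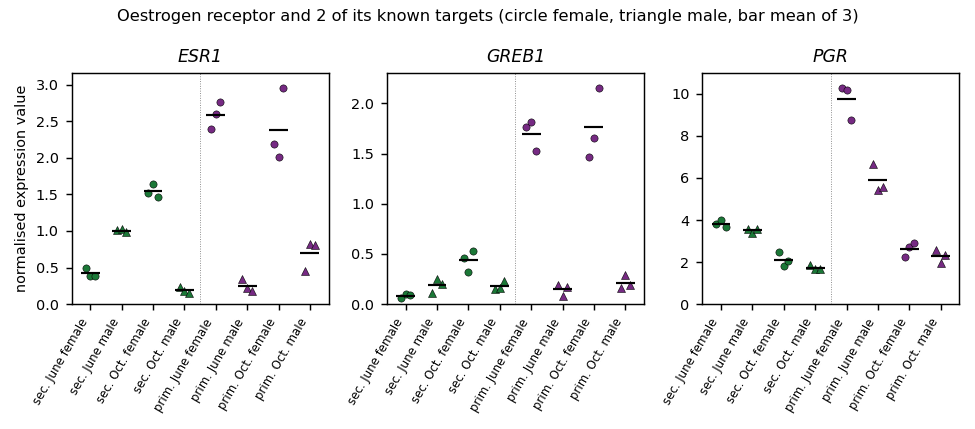
Deposited normalised expression value (vertical axes, linear, from 0) of ESR1 and its known targets GREB1 and PGR in the 24 libraries by group; points are libraries and bars are means of 3. ESR1 and GREB1 are both highest in the primary female libraries of June and October, while PGR peaks in primary June females alone.

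GHR, the growth hormone receptor, was low, with values of 0.81 to 3.96. Its clearest change was a fall from June to October. In primary females it went from 2.98, 3.91 and 2.97 to 0.81, 1.99 and 1.26 (log2 difference -0.89, SE 0.13, adjusted p = 7.96e-06), and in primary males from 3.85, 3.96 and 3.61 to 1.93, 2.25 and 1.93 (-0.66, adjusted p = 0.000196). In secondary females it went from 3.69, 3.5 and 3.27 to 2.54, 2.14 and 1.82 (-0.51, adjusted p = 0.00284). These 3 pairs of groups do not overlap. Secondary males did not follow: 2.54, 3.29 and 2.67 in June and 2.67, 3.13 and 3.33 in October overlap (0.08, adjusted p = 0.639), and they differed in this from secondary females (0.59, adjusted p = 0.0165) and from primary males (0.74, adjusted p = 0.00258). The first of these tests was lost without secondary October female 3 (0.51, adjusted p = 0.050).

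The other GHR calls were less firm. Secondary cells were above primary cells in October (0.45, adjusted p = 0.00984 in females, and 0.41, adjusted p = 0.0328 in males) and below them in June males (-0.33, adjusted p = 0.0357). The October female call was lost without secondary October female 1 (0.37, adjusted p = 0.0575) or primary October female 1 (0.28, adjusted p = 0.0976), and with these groups fitted alone (adjusted p = 0.0815). The October male call was lost without secondary October male 2 (0.39, 0.0835) or 3 (0.36, 0.119) or primary October male 1 (0.39, 0.102) or 3 (0.39, 0.0943). The June male call was lost without secondary June male 1 (-0.28, 0.12) or 3 (-0.30, 0.097) or primary June male 1 (-0.32, 0.076) or 2 (-0.31, 0.0894). Both male calls were also lost with no filter, with a pseudocount of 0.1 and with a common library total. Males exceeded females in October, by 0.36 in secondary (adjusted p = 0.0359) and 0.40 in primary cells (adjusted p = 0.0237). The secondary call was lost without secondary October female 2 (0.35, 0.0734) or 3 (0.27, 0.147) or secondary October male 2 (0.34, 0.0839) or 3 (0.30, 0.124), and the primary one without primary October female 1 (0.22, 0.194) or 3 (0.38, 0.0567) or primary October male 2 (0.35, 0.0899). The secondary call was also lost with no filter (adjusted p = 0.0532), with a pseudocount of 0.1 (0.0586) and with a common library total (0.0674), and the primary one with its 2 groups fitted alone (0.0945).

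PRLR, the prolactin receptor, lay between 0.46 and 0.87 in all 24 libraries, below the level for testing. Its group means ran from 0.53 ± 0.03 (SD, n = 3) in secondary June males to 0.78 ± 0.0458 in secondary October females, and neighbouring groups overlapped throughout. In secondary females the libraries read 0.67, 0.5 and 0.58 in June and 0.77, 0.83 and 0.74 in October, and in secondary males 0.56, 0.5 and 0.53 against 0.46, 0.64 and 0.63. The former pair does not overlap and the latter does. No difference of PRLR was tested.

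Of the genes downstream of these receptors, JAK2 was at 26.3 to 34.5 in primary libraries and 36.4 to 66.3 in secondary ones, higher in secondary cells in June (0.79 in females, 0.62 in males) and in October females (0.98). STAT5B, the transcription factor JAK2 activates, was lower in secondary cells in all 4 comparisons, by 0.17 to 0.21, and STAT5A was not analysed here. SOCS2, a feedback inhibitor induced by growth hormone, was lower in secondary cells in June (-0.55 and -0.64) and in October females (-0.64). It fell from June to October in primary males (-0.94), where GHR also fell, and was not called in primary females (0.01), where GHR fell most. IGF1, the growth factor through which growth hormone acts on many tissues, went opposite ways in the sexes. It rose in males, from 4.36 to 5.61 up to 26.7 to 32 in secondary cells (2.35) and by 1.91 in primary cells, and fell in primary females (-0.80). Secondary females moved little, with means of 17.1 in June and 14.6 in October. CISH, another inhibitor of this family, was at 0.23 to 1.33 and was called in 4 comparisons. Among the remaining genes of the list, IGFBP3, which carries IGF1, was lower in males than in females in secondary October cells (-2.36), and SOCS3 was higher in secondary than in primary October females (1.46). Of 13 tested genes, secondary against primary cells gave 2 higher and 8 lower in June females (25% and 24.3% of all genes). Counts were 3 and 8 in June males (30.7% and 28.9%), 5 and 3 in October females (18.3% and 17.2%) and 0 and 3 in October males (10.9% and 7.63%).

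**Figure D3:**
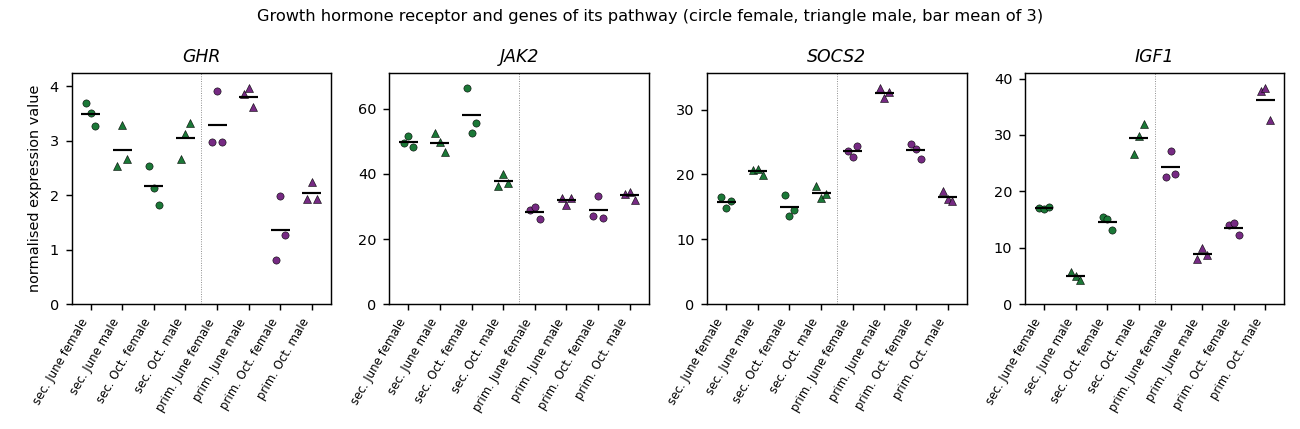
Deposited normalised expression value (vertical axes, linear, from 0) of GHR, JAK2, SOCS2 and IGF1 in the 24 libraries by group; points are libraries and bars are means of 3. GHR falls from June to October in 3 of 4 series, JAK2 is at 36.4 or more in all secondary and at 34.5 or less in all primary libraries, and IGF1 is highest in October males.

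MTNR1A was listed at 0 in 22 libraries, and at 0.07 and 0.08 in the other 2, so nothing could be compared. MTNR1B, the second melatonin receptor, and GPR50, a related receptor that does not bind melatonin, were listed at 0 in all 24 libraries. The reads behind a value are unknown, and a value of 0 gives no limit on expression. NQO2, a reductase known as a low-affinity melatonin binding site, was well expressed at 86.0 to 118 and was higher in secondary October females than in primary ones (0.30). RORA, a nuclear receptor of the clock once proposed to bind melatonin, fell from June to October in primary cells (-0.85 in females, -0.44 in males) and in secondary males (-1.09) and was not called in secondary females (0.13). Of the 7 listed genes, these were the 2 that reached the level for testing.

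Set against the whole table, the members' calls differed by comparison, and the percentages that follow are shares of the 13049 tested genes. In secondary against primary June females 0 of the 7 tested members were higher (25% of genes were) and 5 lower (24.3%), with 49.3% of genes called either way. In June males 1 was higher (30.7%) and 4 lower (28.9%), of 59.6% called. In October females 1 was higher (18.3%) and 5 lower (17.2%), of 35.5% called, and in October males 1 was higher (10.9%) and 3 lower (7.63%), of 18.5% called. Members that were lower in secondary cells thus outnumbered those that were higher in each of these. Over all genes higher calls were slightly more frequent in June females (50.8% of called genes), June males (51.5%) and October females (51.6%), and more so in October males. In June males the lower calls of NR3C1 and GHR were lost with a common library total. In October males the excess of higher calls over all genes rests on the scaling: 1416 genes were higher and 996 lower as deposited (58.7% higher), and 742 were higher and 2016 lower with a common library total (26.9% higher). Over the 12 comparisons that share ran from 44.8 to 58.7% as deposited and from 26.9 to 67.4% with a common total.

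From June to October 1 member rose (24.2% of genes did) and 5 fell (27.1%) in secondary females, with 51.3% called either way. In secondary males 2 rose (25.3%) and 2 fell (31.2%), of 56.5% called. In primary females 0 rose (22.7%) and 5 fell (25.6%), of 48.2% called, and in primary males 1 rose (26%) and 4 fell (29.5%), of 55.5% called. Males were higher than females for 3 members (20.9% of genes) and lower for 1 (18.6%) in secondary June cells, with 39.5% called. In secondary October cells they were higher for 5 (19.5%) and lower for 2 (20.9%), of 40.4% called. In primary June cells 1 was higher (23.1%) and 1 lower (22.3%), of 45.4% called, and in primary October cells 4 were higher (15.8%) and 1 lower (17.8%), of 33.6% called. Over all genes 44.4% of gene comparisons were called, so a single call is common in these data. Most tested members had more calls than the median gene, which had 5 of 12. VDR had 12, ESR1 and NR3C1 11 each, THRB 9, GHR 8, THRA 6 and DIO2 1. The members were chosen with earlier results of these data known.

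Changes of at least 2-fold on the log2(value + 1) scale, which understates folds at low values, were rarer. VDR passed in 3 comparisons and ESR1 in 3, and none of the other 5 tested members did in any. By follicle type, ESR1 passed in June females (4.27% of genes did), and VDR in June males (7.35%) and October females (3.08%), while no member passed in October males (0.659%). By sex, both passed in secondary October cells (3.06%) and ESR1 in primary June cells (4.06%), and no member did in secondary June (1.93%) or primary October cells (2.56%). From June to October no member passed in secondary females (3.94%), secondary males (6.31%), primary females (2.93%) or primary males (5.13%). By ratios of means, which the rule does not use, ESR1 rose 3.65-fold in secondary females and 2.77-fold in primary males. It fell 5.39-fold in secondary males, and GHR fell 2.43-fold in primary females. By means ESR1 also differed by follicle type in males, 4.03-fold in June with secondary cells higher and 3.71-fold in October with secondary cells lower. Between the sexes it differed 2.38-fold in secondary June and 3.44-fold in primary October cells.

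**Figure D4:**
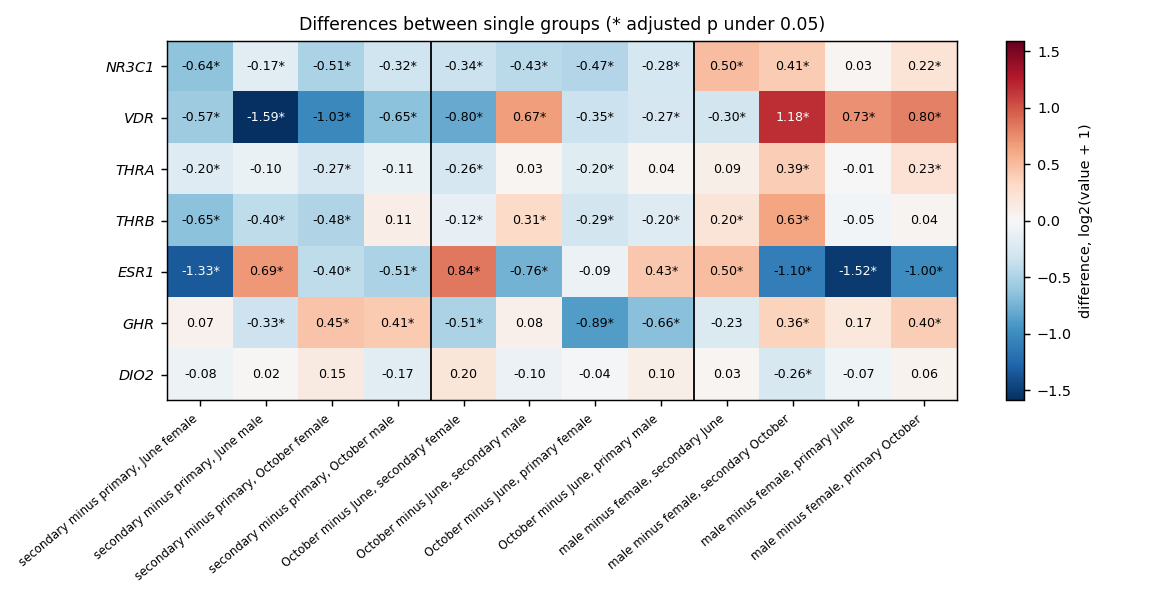
Difference on the log2(value + 1) scale (colour and number) of the 7 tested genes in the 12 comparisons of groups that differ in follicle type, month or sex; a star marks an adjusted p under 0.05. NR3C1 and VDR are lower in secondary cells in all 4 comparisons of follicle type (the NR3C1 call in June males was lost under several alternatives), NR3C1 is lower in October in all 4 comparisons of month, and DIO2 has 1 call.

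The factors of the design weighed differently on the members. Follicle type accounted for 56.1% of the sum of squares of log2 VDR values and 45.2% of THRB, where the median over all tested genes was 9.02%. Month accounted for 47.3% for GHR and 32.3% for NR3C1 (median of all genes 16.1%). Sex accounted for 43.8% for ESR1, 27.7% for THRA and 22.0% for VDR (median of all genes 5.59%). NR3C1 was split between follicle type (38.0%), month (32.3%) and sex (18.7%). For DIO2 50.7% lay between libraries of a group, against 0.781% for VDR and a median of 16.3% over all genes. These shares describe the 24 libraries and carry no test.

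**Figure D5:**
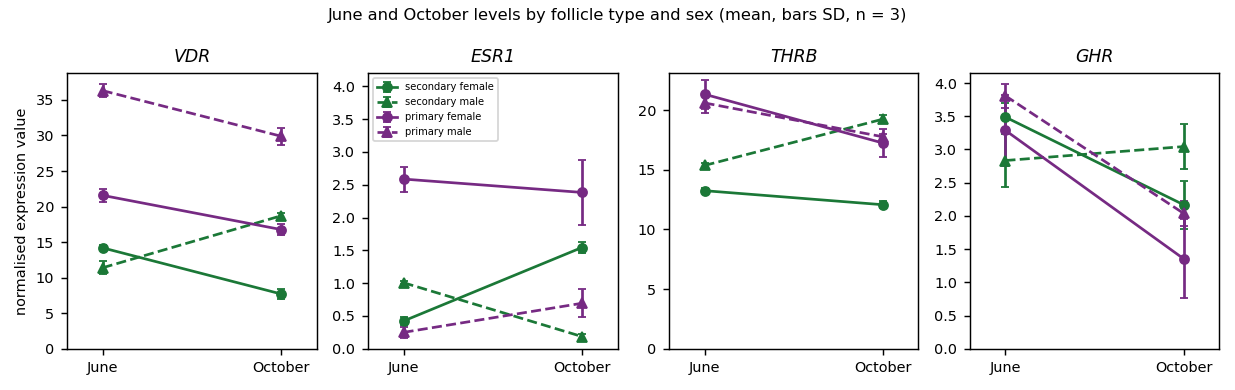
Mean deposited value in June and October (bars are SD, n = 3, vertical axes linear from 0) of VDR, ESR1, THRB and GHR, with 1 line for each follicle type and sex. The secondary male line runs against the secondary female line for VDR, ESR1 and THRB, and GHR falls in every line but that of secondary males.

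The effect of follicle type changed between June and October in females for 2 of 7 tested members, VDR (-0.46) and ESR1 (0.93), where 40.2% of genes were called. In males it changed for 4 (VDR, ESR1, THRB and GHR), where 43.9% were called. It differed between the sexes in June for 4 (VDR, ESR1, THRB and NR3C1, 41.2% of genes called) and in October for 2 (VDR and THRB, 26.7%). Differences of at least 2-fold on the log2(value + 1) scale were reached in males between months by ESR1 (-1.19, 6.66% of genes). In June they were reached between sexes by ESR1 (2.02) and VDR (-1.02, 5.69% of genes). No member reached them between months in females (5.57%) or between sexes in October (3.28%).

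The secondary male series departed from the others in the plot of June and October means of VDR, ESR1, THRB and GHR. In secondary cells the change from June to October differed between the sexes for 5 of 7 tested members: VDR (1.48), GHR (0.59), THRB (0.43), THRA (0.30, adjusted p = 0.0225) and, in the opposite direction, ESR1 (-1.60), where 37.7% of genes were called. In primary cells the same test called only ESR1 (0.53, adjusted p = 0.00462), where 36.8% of genes were called. THRA gave a similar value there without a call (0.24, adjusted p = 0.0679), so its difference is not particular to secondary cells. VDR and ESR1 passed the 2-fold mark in the former (5.33% of genes) and no member in the latter (5.17%). The THRA test in secondary cells was lost without secondary June male 1 (0.26, adjusted p = 0.0574) or secondary October female 1 (0.20, adjusted p = 0.0779) and with a common library total (0.19, adjusted p = 0.132). Of the 4 groups in the secondary test, the October females had a raised epithelial marker sum, mostly of KRT5 and KRT14. The October males had SOX2 at the level of primary cells, and the June males had the highest immune marker sum and PECAM1. In the June males CD68 (21.9) and CD14 (14.8) made up most of the immune sum, with PTPRC and CDH5 at 0. The part of these markers in the differences was not tested.

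Some genes elsewhere in the table ran closely with the members over the 24 libraries, on the log2(value + 1) scale and among 9990 other genes with a mean of at least 5 in some group. Nearest to VDR were PRKD1 (Pearson r = 0.94), KLHL29 and PLXDC2 (both 0.93). Nearest to NR3C1 were LRRC58 (0.95), ZFP36L2 (0.94) and TCP11L2 (0.92), and nearest to THRB were LRBA (0.95), SULT1B1 (0.93) and SLC2A3 (0.92). ESR1 ran closest with MASP1 (0.92), PDE4B (0.90) and ARHGAP18 (0.88), THRA with HDAC7 (0.92), EHD1 (0.89) and THSD1 (0.88), and GHR with NEGR1 (0.90), CD109 (0.87) and PAK1 (0.87). For DIO2 the closest were TNS4 (0.79), APAF1 (0.77) and MBL2 (0.71). The libraries share 8 groups, so these values describe likeness of pattern over groups rather than 24 independent points.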

How the data were processed

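RNA of papilla cells was measured in 24 libraries. The labels' protocols name RNAiso Plus for RNA extraction and the NEBNext Ultra kit for paired-end libraries. Kallisto 0.46.1 and sleuth 0.30.0 are listed in the submitters' processing notes without role or order, and build, transcript set and filters are not given in the sources used. Each deposited value is a normalised expression signal per gene and library, given to 2 decimals and not a count, so there is no counting interval and precision rests on 3 libraries a group. Library totals have a geometric mean of 1e+06. The 9 gene IDs were found in the ARS1.2 reference table under the same symbols, and no sequence was used here.

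Values of genes that reached 1 in 3 libraries were taken as log2(value + 1). A limma fit (version 3.58.1, with statmod 1.5.0 in R 4.3.3) had 8 group means, a variance trend and robust estimation on 16 residual degrees of freedom. There were 12 comparisons of groups that differ in 1 factor and 6 interaction tests. P-values were adjusted by Benjamini-Hochberg over the 13049 genes tested, with calls under 0.05. On simulated data for secondary against primary June females (13049 genes), 35 of 50 genes changed 1.25-fold, 48 of 50 changed 1.5-fold and 50 of 50 at 2-fold were recovered, and 8 of 12849 unchanged genes were called. These folds were set on the log2(value + 1) scale, in genes that averaged above a value of 5 in the 2 groups. ESR1, GHR and DIO2 lie below that level, so the recovery does not cover them. The members and lists were chosen with earlier results of these data known. The text names all members, 25 genes fixed by name, up to 3 further genes of each of 6 lists with the largest called difference and a mean of at least 5, and the 3 genes most correlated with each tested member. Results of 3 genes that this rule names are not reported here. Alternatives were 2 other filters, a pseudocount of 0.1, a common total, median-of-ratios factors, a spread not estimated robustly, fits of only the compared groups, leaving out each library, the replicate number as a block and a 2-fold rule. Fits without the secondary October female or the secondary October male group were added after the data were seen.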

Additional observations from a re-analysis of the deposited data

Results flagged for a closer look

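In all, 18 effects of the tested members differed between the levels of another factor by an interaction test (limma, adjusted p under 0.05). Each value is a difference of log2 differences. Single interaction tests called 1 to 5 of the 7 tested members and 26.7 to 43.9% of all 13049 tested genes. Such calls are therefore common in these data and not particular to the members. The effect of follicle type changed from June to October in females for ESR1 (0.93) and VDR (-0.46), and in males for ESR1 (-1.19), THRB (0.51), VDR (0.94) and GHR (0.74). It differed between males and females in June for ESR1 (2.02), THRB (0.25), NR3C1 (0.46) and VDR (-1.02), and in October for THRB (0.59) and VDR (0.38). The change from June to October differed between males and females in secondary cells for ESR1 (-1.596), THRA (0.30), THRB (0.43), VDR (1.48) and GHR (0.59), and in primary cells for ESR1 (0.53). Groups of 3 libraries were not searched for single outlying libraries.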

How the results depend on the processing

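No called difference of a tested member changed sign under any alternative. The 2-fold rule was applied to differences on the log2(value + 1) scale. Under the rule of at least 2-fold, the members called fell to 1 in each of 3 comparisons of follicle type (June females, June males and October females), to 2 for males against females in secondary October and to 1 in primary June, and to 0 in the other 7 comparisons of single groups; the interaction tests kept 2 for follicle type by sex in June, 2 for month by sex in secondary cells, 1 for follicle type by month in males and 0 in the other 3. With a common library total, 3 instead of 5 members were called for follicle type in June males and 2 instead of 1 for month by sex in primary cells. With the compared groups alone, 2 instead of 5 were called for males against females in primary October, and without the secondary October female group 2 instead of 1 for month by sex in primary cells. Leaving out 1 library gave 3 to 5 members for follicle type in June males (3 without secondary June male 1, secondary June male 3 or primary June male 1), 3 to 5 for males against females in primary October (3 without primary October female 1 or primary October male 2), 2 to 5 for follicle type by month in females (5 without primary October female 2), and 1 to 3 for month by sex in primary cells (3 without primary October female 2, and 2 without primary June female 2, primary June male 3, secondary October female 1 or primary October female 3).

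The labels do not say whether replicate numbers pair the libraries, and a check of the values does not settle it. Of 84 same-number pairs, 25 correlated above 0.1 in their deviations from the group mean. For replicate 3 these were 14 of 28 pairs. In all, 11 of 24 libraries were closest to their own number. With the replicate number as a block (replicate block), 2 instead of 1 members were called for month by sex in primary cells, where THRA was 0.24 (adjusted p = 0.0465), and no other call of a member changed. Rescaling to a common total moved the median of all genes by -0.16 for follicle type by month in males and by -0.10 for month by sex in secondary cells. The share of called genes that were higher was 44.8 to 58.7% over the 12 comparisons as deposited and 26.9 to 67.4% after rescaling. ESR1 was called for follicle type by sex in October with a pseudocount of 0.1 (-0.86, adjusted p = 0.033) and not as deposited (-0.10, adjusted p = 0.641). The cause of these changes was not tested. The depth behind the values is unknown, and PRLR and MTNR1A were below the level for testing.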
